A study of Mus musculus with 20 samples.

Results

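The stretches of open chromatin in the mesenchyme of the embryonic mouse stomach were compared between control cells and cells that lack Eed. The members were 139334 regions, made by merging every peak of the control list and the Eed knockout (KO) list of the stomach that overlapped by at least 1 bp, out of 162113 regions when all 4 lists of the series, from stomach and intestine, were merged. A region was called shared where both stomach lists held a peak in it, gained where only the Eed KO list did and lost where only the control list did. Shared regions numbered 91761 (65.9%), gained regions 24588 (17.6%) and lost regions 22985 (16.5%).

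Cells were GFP-positive mesenchymal cells sorted at E13.5 (embryonic day). The labels give the strain as C57BL/6, whereas the study lists the Eed fl line as a mix of 129 and C57BL/6, the Rosa26mTmG line as a mix of C57BL/6J and CD-1 and the Bapx1-cre line as C57BL/6. Background alleles that came with Eed fl cannot be told apart from the loss of Eed. Controls carried Bapx1-cre and the Rosa26mTmG reporter, and Eed KO embryos carried Eed fl/fl beside the same 2 alleles, so that control cells were Cre-positive too. Bapx1-cre is active in the mesenchyme around the gut tube, and GFP marks the cells that expressed Cre together with their descendants. Accessibility was measured by Omni-ATAC in 2 samples per genotype, which the submitters pooled into 1 peak list per genotype, and RNA in 2 further samples per genotype. Each peak carries a fold enrichment over the local background of the peak caller MACS2 and a -log10 q value, where q is the false discovery rate of the call. With 1 list per genotype there is no replicate check on any gain or loss, the read depth behind the lists is unknown, and every ATAC difference here describes these lists.

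EED is a core subunit of Polycomb repressive complex 2 (PRC2), which methylates lysine 27 of histone H3 and keeps developmental genes silent outside the tissues that use them. Its targets are often CpG-rich gene starts, among them the Hox clusters, whose genes give each stretch of the body axis its identity. The transposase of ATAC cuts where nucleosomes are sparse, and the starts of active genes and of many silent CpG-rich genes are open in this assay.

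Stretches of 300 bases around 6 gene starts (250 before to 50 after the start, RefSeq, GRCm38.p6) show the kinds of start on which the results turn, with CpG in capitals. Slc17a7 (chr7:45163671-45163970, plus strand) had a start in a gained region, Tdo2 (chr3:81975679-81975978, minus strand) a start in a lost region, and the Tdo2 stretch lies 474 bases from the gene start taken from the count files. Hoxa10 (chr6:52240805-52241104, minus strand), Hoxd10 (chr2:74691641-74691940, plus strand), Cdkn2b (chr4:89310983-89311282, minus strand) and Nkx2-3 (chr19:43612075-43612374, plus strand) had starts that were open in both lists while their RNA was near 0 or low in control cells. They held 13, 4, 12, 22, 18 and 15 CpG in the order named, or 4.33, 1.33, 4.00, 7.33, 6.00 and 5.00 per 100 bases. The median over 32851 RefSeq stretches of this kind was 2.33 CpG per 100 bases, and Tdo2 alone lay below it.
Slc17a7: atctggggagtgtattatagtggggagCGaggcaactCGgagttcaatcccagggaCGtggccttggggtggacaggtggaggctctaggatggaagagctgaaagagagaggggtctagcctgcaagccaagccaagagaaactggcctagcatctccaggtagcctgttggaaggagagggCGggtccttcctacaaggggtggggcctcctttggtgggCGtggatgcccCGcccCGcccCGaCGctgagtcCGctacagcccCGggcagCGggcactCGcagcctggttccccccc
Tdo2: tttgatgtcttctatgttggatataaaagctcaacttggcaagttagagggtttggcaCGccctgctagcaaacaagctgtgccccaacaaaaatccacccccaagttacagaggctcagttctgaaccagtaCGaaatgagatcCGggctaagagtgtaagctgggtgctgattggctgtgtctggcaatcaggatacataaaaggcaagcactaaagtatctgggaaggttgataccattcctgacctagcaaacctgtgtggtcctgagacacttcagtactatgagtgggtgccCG
Hoxa10: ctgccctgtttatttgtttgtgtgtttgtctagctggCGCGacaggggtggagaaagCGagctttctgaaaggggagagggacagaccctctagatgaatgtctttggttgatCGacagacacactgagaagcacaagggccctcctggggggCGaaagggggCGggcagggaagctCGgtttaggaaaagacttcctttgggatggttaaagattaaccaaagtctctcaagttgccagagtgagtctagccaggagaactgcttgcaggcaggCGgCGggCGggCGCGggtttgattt
Hoxd10: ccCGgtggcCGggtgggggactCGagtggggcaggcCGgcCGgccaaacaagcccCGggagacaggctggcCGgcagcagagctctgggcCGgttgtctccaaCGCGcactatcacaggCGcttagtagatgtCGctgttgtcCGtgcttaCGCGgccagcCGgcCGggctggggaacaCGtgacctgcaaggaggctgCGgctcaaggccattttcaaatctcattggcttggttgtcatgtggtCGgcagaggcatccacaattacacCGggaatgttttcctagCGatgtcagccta
Cdkn2b: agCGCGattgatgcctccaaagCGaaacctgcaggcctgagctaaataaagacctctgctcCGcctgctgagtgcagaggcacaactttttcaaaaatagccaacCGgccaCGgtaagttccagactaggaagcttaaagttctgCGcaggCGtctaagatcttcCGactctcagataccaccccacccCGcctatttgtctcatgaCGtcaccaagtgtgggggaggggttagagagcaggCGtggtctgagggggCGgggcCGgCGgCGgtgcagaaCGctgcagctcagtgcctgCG
Nkx2-3: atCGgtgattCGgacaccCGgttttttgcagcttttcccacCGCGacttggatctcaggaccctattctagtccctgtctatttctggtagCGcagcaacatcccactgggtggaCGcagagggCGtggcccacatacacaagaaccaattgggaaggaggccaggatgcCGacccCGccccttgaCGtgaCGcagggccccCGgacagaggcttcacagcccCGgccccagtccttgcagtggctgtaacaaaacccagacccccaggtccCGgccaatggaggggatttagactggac

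The gained and the lost region with the highest fold enrichment follow on the plus strand of the same build, again with CpG in capitals. The gained one (chr4:88788498-88788693, 196 bp, 8 CpG) lies on the start of the predicted gene Gm13277, and the lost one (chr9:110281246-110281368, 123 bp, 6 CpG) on the start of the microRNA gene Mir6236.
Gm13277: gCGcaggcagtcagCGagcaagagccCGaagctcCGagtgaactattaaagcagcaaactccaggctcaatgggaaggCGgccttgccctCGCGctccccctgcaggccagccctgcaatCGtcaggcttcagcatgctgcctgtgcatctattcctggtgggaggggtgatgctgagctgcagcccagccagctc
Mir6236: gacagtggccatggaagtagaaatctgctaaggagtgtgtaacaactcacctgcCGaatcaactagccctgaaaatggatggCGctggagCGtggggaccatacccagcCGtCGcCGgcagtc

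Eed loss left most open regions in place, and the regions in a single list were short and weak peaks. Gained regions had a median width of 272 bp (interquartile range 170 to 534) and lost regions of 253 bp (169 to 461), whereas shared regions spanned 812 bp (460 to 1298). The median fold enrichment was 2.81 in gained and 2.74 in lost regions, and 4.06 in shared regions in either list. Gained and lost regions thus resembled each other more than either resembled the shared regions. This contrast is partly set by the classes, since a peak near the threshold is more easily missing from the other list. A shared region also spans the merged peaks of both lists and takes the higher -log10 q of the 2, so its width and -log10 q are not like measures. Together the gained regions covered 10.1 Mb, the lost regions 8.71 Mb and the shared regions 89.3 Mb. A -log10 q under 2, a q above the threshold stated for the peak calls, was found in 9886 gained regions (40.2%) and 12349 lost regions (53.7%), against 3.53% of shared regions. At a -log10 q of at least 5 there were 3501 gained and 1673 lost regions, called strong below. This cut is not equal between the lists, since at 4 to 5-fold enrichment the median -log10 q was 8.64 in the Eed KO and 7.95 in the control list. With only the 50000 most significant peaks of each list, gained and lost regions numbered 8833 and 8685. The excess of strong gained regions is therefore not read as a result.

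**Figure D1:**
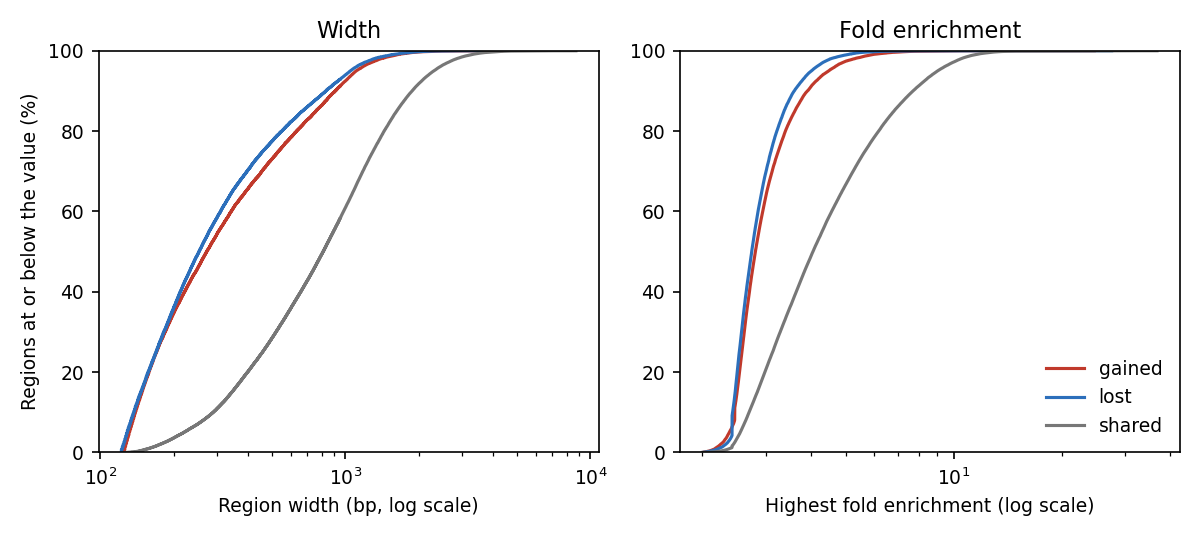
Cumulative share of regions (%) by width in bp (left) and by the highest fold enrichment of their peaks (right), both on log scales, for gained, lost and shared regions of the stomach lists. The gained and lost curves lie close together at small widths and low enrichment, with medians of 272 and 253 bp, far left of the shared curve with its median of 812 bp.

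The 2 lists themselves were alike in size. The control list held 115789 peaks with a median width of 520 bp over 80.4 Mb, and the Eed KO list 116842 peaks with a median of 562 bp over 87.7 Mb. Their median fold enrichments were 3.63 and 3.65. The -log10 q of the Eed KO list was higher at the same enrichment, with medians of 2.11 against 1.89 among peaks at 2.5 to 3-fold and of 53.8 against 50.5 at 8 to 10-fold, so a rise of -log10 q at a start is read against the rise over all starts. Within shared regions the fold enrichment of Eed KO over control had a median ratio of 1.00 (interquartile range 0.892 to 1.14). It reached 1.5 in 3094 shared regions (3.37%) and fell to 2/3 or less in 2694 (2.94%). The covered length had a median ratio of 1.04 (0.874 to 1.34).

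Gained and lost regions lay mostly in introns and between genes. Of the gained regions, 861 (3.50%, exact 95% Clopper-Pearson interval 3.28 to 3.74, counting error only) overlapped the 1000 bp on either side of a gene start, 7.83% an exon, 41.6% an intron and 47.0% intergenic sequence. Of the lost regions, 517 (2.25%, interval 2.06 to 2.45) overlapped a start window, 8.37% an exon, 45.3% an intron and 44.1% intergenic sequence. Shared regions overlapped start windows far more often, in 15872 cases (17.3%). Among the strong regions, 150 of 3501 gained (4.28%, 3.64 to 5.01) and 37 of 1673 lost ones (2.21%, 1.56 to 3.04) did so. With 1 list per genotype the difference between gained and lost shares was not tested. The median distance to the nearest gene start was 25204 bp for gained, 30996 bp for lost and 18263 bp for shared regions.

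**Figure D2:**
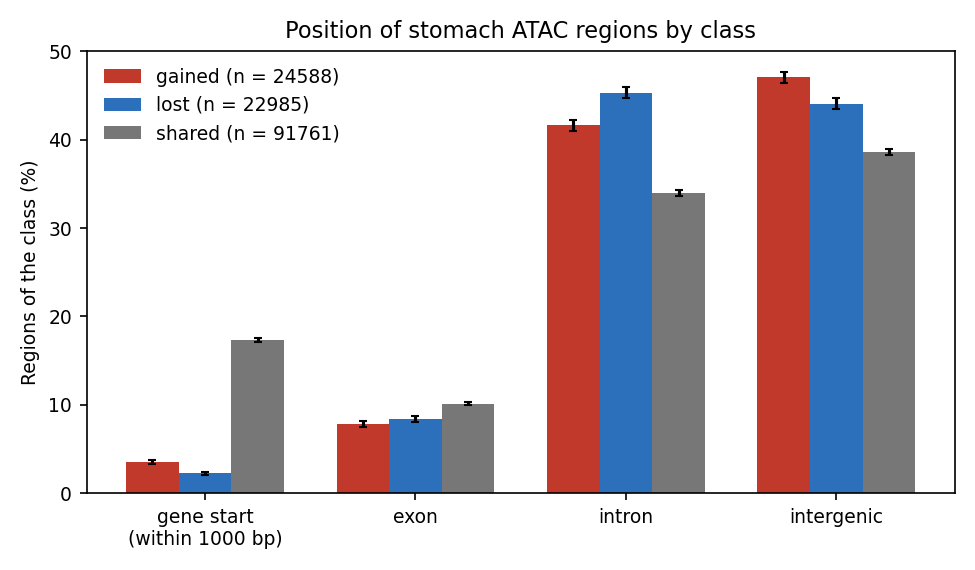
Share of gained, lost and shared stomach regions (%) at gene starts (within 1000 bp), in exons, in introns and between genes, with exact 95% binomial intervals as error bars (counting error only). Start windows held 3.50% of gained, 2.25% of lost and 17.3% of shared regions.

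No chromosome stood far apart. Gained regions made up from 13.9% (chromosome X) to 18.9% (chromosome 14) of the regions of a chromosome, and lost regions from 13.9% (chromosome 7) to 18.4% (chromosome 3). In the central 300 bases, the median GC content was 48.3% in gained, 46.3% in lost and 49.7% in shared regions, with 1.00, 1.00 and 1.67 CpG per 100 bases. At gene starts the difference was wide, since shared start regions had 6.67 CpG per 100 bases at 62.3% GC, gained ones 1.33 at 51.3% and lost ones 1.00 at 48.3%. Starts in gained or lost regions were thus CpG-poor for the most part, unlike the starts open in both lists.

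Short motifs were counted on both strands of the same central 300 bases, as letters only. GATAA, the core bound by GATA factors, stood in 34.5% of gained, 32.1% of lost and 29.0% of shared regions (30.5% of all), and outside start windows in 34.7%, 32.1% and 32.0%. TATAAA, the TATA box, stood in 15.9%, 19.7% and 14.6% (15.7% of all), and TGACTCA, the AP-1 site, in 6.80%, 8.30% and 6.02% (6.54% of all). Both were thus most frequent in lost regions. CCAAT (30.0%, 30.0%, 28.8%), TAATTA of homeodomain proteins (6.10%, 6.02%, 5.44%) and the E-box CACCTG (17.7%, 19.2%, 18.9%) were near their shares of 29.2%, 5.65% and 18.7% among all regions.

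The intestine lists, from the same genotypes and stage, were not used to make the classes and show where else these regions were open. Of the gained regions, 22.5% overlapped a peak of the control intestine and 46.3% a peak of the Eed KO intestine. Of the lost regions, 37.5% overlapped the control and 32.4% the Eed KO intestine list, and shared regions did so in 85.1% and 89.5%. The gap was wider among strong regions, with 29.8% and 71.0% for the gained and 64.7% and 51.4% for the lost. In all, 7087 gained regions (28.8%) lay in the Eed KO intestine list alone, 17.4% in both intestine lists, 5.06% in the control list alone and 48.7% in neither. About as many lost regions, 51.6%, lay in neither.

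The 5 gained regions with the highest fold enrichment lay at predicted or small RNA genes. Next to the Gm13277 region (fold enrichment 24.6, -log10 q 128) came 2 more on chromosome 4, on the start of Gm26525 (chr4:88794111-88794585, 12.5) and 343 bp from that of Gm13288 (chr4:88805874-88806067, 11.3). All 3 were absent from the control intestine list and present in the Eed KO intestine list. The others were an intronic region nearest Gm23583 (chr1:193001012-193001160, 11.0) and the start of Gm2058 (chr7:39588509-39589135, 10.5). The central 50 bases occurred 12 times in the genome for the Gm26525 region and 2 times for the Gm2058 region, so reads of these 2 could have come from other copies.

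Among the strongest lost regions, the Mir6236 region (fold enrichment 27.5, -log10 q 172) was followed by the start of Gm10222 (chr1:24612529-24613239, -log10 q 876), whose central 50 bases also occur once in the mitochondrial genome. Also among them were an intronic region nearest Atp2b3, which encodes a calcium pump of the plasma membrane (chrX:73493706-73493834, 12.8), and the start of Rprl3 (chr8:3803214-3803335, 10.1). All but the Mir6236 region were present in the control intestine list, and none of the 4 was in the Eed KO intestine list. The central 50 bases of the Mir6236 region occurred 1 time in the chromosomes searched. Repeats that are not assembled into these chromosomes were not searched. Reads of the Mir6236 region could therefore have come from elsewhere, and its loss cannot be taken as a change at the microRNA gene.

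By length, the strong gained regions were led by a 2380 bp region in an intron nearest Gm13653 (chr2:75222585-75224964, fold enrichment 6.64), absent from the control and present in the Eed KO intestine list. A 1872 bp gained region lay 20186 bp from the start of Adrb1, the beta-1 adrenergic receptor (chr19:56700315-56702186, fold enrichment 4.13). Adrb1 RNA was 1.14 and 1.89 CPM in the control replicates and 5.49 and 6.77 in the Eed KO replicates, higher in both Eed KO replicates (log2 fold change 1.97, SE 0.32, adjusted p = 0.0128). Of the 10 genes nearest to the longest summed gained regions, only Adrb1 was called in RNA, 7 were not tested for lack of counts, and Pdzd2 and Ykt6 were not called. Of all genes tested 4.84% were higher and 0.808% lower, and so few tested genes cannot be set apart from these shares. The longest summed lost regions lay nearest Gm26645 (3 regions, 3248 bp), D1Ertd622e and Gm23692 (2077 bp each), and included a 1822 bp intronic region 32206 bp from the start of Ets1, an ETS family transcription factor (chr9:32668427-32670248, fold enrichment 2.87). None of the 10 genes nearest to the longest lost regions was called. Among at most 10 tested genes this does not differ from the shares over all genes. Ets1 RNA was 171 and 154 against 173 and 123 CPM (log2 fold change -0.17, SE 0.15, adjusted p = 0.569). Adrb1 lost the call without control replicate 1 or Eed KO replicate 2 (adjusted p from 0.0729 to 0.0766).

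RNA from the same sorted population was then read at the gene starts of each class. Eed RNA was 40.5 and 41.1 CPM in the control replicates and 11.9 and 7.43 in the Eed KO replicates, lower in both Eed KO replicates (log2 fold change -2.11, SE 0.21, adjusted p = 0.00175), and its start was open in both lists (fold enrichment 6.56 to 7.17). CPM are counts per 1000000 gene counts of the library, and the 4 stomach libraries held from 34115855 to 39606157 gene counts. A gene was called where the adjusted p of edgeR's quasi-likelihood test was under 0.05 and the log2 fold change over 1 in size. Of 16218 genes tested, 785 (4.84%) were higher and 131 (0.808%) lower in Eed KO. Spike-in RNA made up 0.110% and 0.0909% of counts in the control and 0.0337% and 0.0134% in the Eed KO replicates, and scaling to it moved the median gene by +2.39 on the log2 scale. Changes are given relative to the other genes, and every lower call named here except Eif3j2 had a log2 fold change above 0 under spike-in scaling. In bulk RNA, fewer cells of a type and less RNA per cell cannot be told apart.

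The sorted cells had the RNA of mesenchyme. The starts of all 10 mesenchyme markers were open in both lists, none was called in RNA, and their summed RNA was 17459 and 21237 CPM in control and 18489 and 25536 in Eed KO. All 8 smooth muscle markers were shared and uncalled, at 3286 and 3359 CPM summed against 2246 and 2475. Markers of other cells were far lower, with 112 to 118 CPM in control and 107 to 145 in Eed KO for 12 epithelial markers, 57.9 to 69.4 and 72.9 to 82.3 for 10 enteric neural crest markers and 2.29 to 5.35 and 3.30 to 5.60 for 10 blood markers. The 7 mesothelial markers summed to 601 and 625 CPM against 388 and 493, and the 9 skeletal muscle markers to 1.73 and 1.92 against 3.68 and 2.59. Endothelial markers moved with the genotype, at 22.0 and 21.4 CPM summed in control and 35.3 and 58.0 in Eed KO, and 6 of 10 were called higher. In RNA, 2 of 11 tested epithelial and 2 of 4 tested skeletal muscle markers were called higher, beside 4.84% of all genes tested. None of the 5 blood, 10 neural crest and 7 mesothelial markers tested was called. Ptprc, the marker of all leukocytes, was at 0 in all 4 libraries. The part of other cell types in the results below was not tested.

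Most genes with changed RNA had starts that were open in both lists. Among 41670 genes with a defined start, 19001 had a shared region at the start, 21322 none, 855 (2.05%) a gained region and 492 (1.18%) a lost region. Of the 785 genes higher in Eed KO, 696 (88.7%) had a shared start, 71 none, 15 a gained and 3 a lost start, and of genes not called 88.3% had a shared start. Read the other way, 15 of 158 tested genes with a gained start were higher (9.49%, beside 4.84% of all genes) and 2 were lower, while of 72 with a lost start 3 were higher and 2 lower (2.78%). Of 131 genes with lower RNA, 100 had a shared start, 27 none, 2 a gained and 2 a lost start. Shared starts came with 696 higher genes of 14284 (4.87%), near the rate over all genes. With peaks of a -log10 q of at least 2 or of at least 5 alone, 26 and 76 genes had a gained start and higher RNA in place of 15, and leaving out each library in turn gave 4 to 13, the lowest without Eed KO replicate 2, with 6 without either control replicate. Even among the 62 higher genes without a single count in either control library, 50 (80.6%) had a start that was open in both lists, 6 had no region, 5 a gained and 1 a lost start.

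The 15 genes with a gained start and higher RNA were a mixed set, with homeobox and endothelial genes among them. Hoxc12, a posterior Hox gene, had a gained start (fold enrichment 2.60, -log10 q 5.55) and 0 and 0 CPM in the control replicates and 0.780 and 2.34 in the Eed KO replicates, at least 38.5-fold higher (adjusted p = 0.0304), where the bound takes 3 counts over both control libraries. Six3, a homeobox gene of forebrain and eye, had a weak peak (fold enrichment 2.01, -log10 q 1.70) and rose from no count to 1.00 and 1.79 CPM, at least 34.4-fold (adjusted p = 0.00880). Esx1, an X-linked homeobox gene of placenta and germ line, rose from no count to 0.976 and 1.46 CPM (fold enrichment 2.66, -log10 q 3.25). These 3 genes had no count in either control library. Slc17a7, the vesicular glutamate transporter 1, had the most significant of these peaks (fold enrichment 2.63, -log10 q 11.9). Its RNA was 0.205 and 0.151 against 2.01 and 1.60 CPM (log2 fold change 3.29, SE 0.40, adjusted p = 0.00386), with no overlap between genotypes. Cdh5 (VE-cadherin, fold enrichment 2.18, -log10 q 1.04) and Emcn (endomucin, fold enrichment 2.77, -log10 q 2.05) are endothelial, and their peaks were among the weakest called. Cdh5 RNA was 0.498 and 0.429 against 4.07 and 8.20 CPM (log2 fold change 3.70, SE 0.40, adjusted p = 0.00250). The rise of the endothelial marker sum stands beside these 2 genes, and its part was not tested. The others were Gm27605, S1pr5, Gm13835 and Ngef and, named after their values were seen, Samd9l, Grin2d, Palm3, Bzrap1 and Anxa1. Hoxc12, Grin2d, Gm13835, Samd9l and Palm3 lost the call without control replicate 1, control replicate 2 or Eed KO replicate 2 (adjusted p from 0.0640 to 0.247). Esx1, S1pr5 and Bzrap1 lost the call whichever of the 4 libraries was left out (adjusted p from 0.0562 to 0.196). Emcn lost the call without control replicate 2 or Eed KO replicate 2 (adjusted p from 0.0627 to 0.0661). Ngef lost the call without Eed KO replicate 2 (adjusted p = 0.0580). Anxa1 lost the call without control replicate 1 or Eed KO replicate 2 (adjusted p from 0.107 to 0.132).

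Both genes with a lost start and lower RNA had weak control peaks. Tdo2, the tryptophan-degrading dioxygenase, had a control peak of fold enrichment 2.84 and -log10 q 2.03, and its RNA was 1.08 and 0.555 against 0.167 and 0.165 CPM (log2 fold change -2.29, SE 0.40, adjusted p = 0.0162). Gm11541, a predicted gene, had 5.22 and 6.29 against 1.67 and 1.07 CPM (log2 fold change -2.10, SE 0.25, adjusted p = 0.00386). Some starts went against the RNA. Aox4 and Cldn2 had gained starts and lower RNA, and Robo4, RP23-16D16.14 and Hotair had lost starts and higher RNA, all named after their values were seen. Hotair is a long noncoding RNA in the Hoxc cluster, antisense to its neighbours, so its counts depend on whether strand was used in counting, which the sources used here do not give. Tdo2 lost the call without control replicate 1, Eed KO replicate 1 or Eed KO replicate 2 (adjusted p from 0.0558 to 0.0996). Aox4, Cldn2 and RP23-16D16.14 lost the call whichever of the 4 libraries was left out (adjusted p from 0.0848 to 0.235). Robo4 and Hotair lost the call without control replicate 1, control replicate 2 or Eed KO replicate 2 (adjusted p from 0.0540 to 0.108).

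At starts open in both lists, peaks of the Eed KO list were more significant and longer, while their median fold enrichment did not rise. Fold enrichment is a value for the whole peak, and summit height was not measured. The rise in significance was more frequent at genes with higher RNA. For the 18691 starts with a peak in both lists, made of 15635 distinct pairs of peaks, -log10 q in Eed KO over control had a median ratio of 1.16. It at least doubled at 1021 starts (5.46%) and fell to 0.5 or less at 177 (0.947%). Of the 691 such genes higher in RNA, 124 (17.9%) had a doubled -log10 q, against 316 of 13433 uncalled genes (2.35%), and the median ratios were 1.32 (interquartile range 1.07 to 1.72) and 1.15. Of the 99 genes lower in RNA, 4 had a doubled and 6 a -log10 q at 0.5 or less, with a median ratio of 1.01. A -log10 q also rises with read depth, and peaks of the Eed KO list were longer over the whole list (median 562 against 520 bp). The part of read depth in significance or length was not tested.

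Among weak starts the doubling of -log10 q differed in the same direction, while the difference in length was smaller. Where the control -log10 q was under 20, 24.9% of 461 higher genes and 10.6% of 2653 uncalled genes had a doubled -log10 q. In these weak starts the covered length was at least 500 bp longer at 126 of the 461 higher (27.3%), 13 of 53 lower (24.5%) and 531 of the 2653 uncalled genes, and the median fold enrichment of higher genes was 3.82 in control and 3.86 in Eed KO. Over all starts the fold enrichment did not rise, with medians of 4.49 in control and 4.29 in Eed KO at higher genes and of 6.97 and 6.89 at uncalled genes. Starts of higher genes thus had a lower median fold enrichment than those of uncalled genes in both lists. The length covered by peaks within 5 kb of the start grew from a median of 1648 to 1955 bp at higher genes and from 1225 to 1316 bp at uncalled genes. It was at least 500 bp longer at 2208 of all 18691 starts (11.8%) and at least 500 bp shorter at 653 (3.49%), and was longer at 189 of the higher genes (27.4%), 21 of the 99 lower genes (21.2%) and 9.11% of the uncalled. Longer coverage was thus more frequent at genes called in either direction.

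Read from the starts, 124 of 444 tested genes with a doubled -log10 q were higher in RNA (27.9%) and 4 lower (0.901%), beside 4.86% and 0.696% of all 14223 tested genes with both peaks. These shares are not matched for peak strength. Of the 1021 doubled starts, 960 were among the 6024 starts with a control -log10 q under 20. Among those weak starts, 115 of 461 higher, 4 of 53 lower and 280 of 2653 uncalled genes had a doubled -log10 q. The count of 124 was 64 without control replicate 1, 65 without control replicate 2, 97 without Eed KO replicate 1 and 67 without Eed KO replicate 2, where the 785 higher genes themselves were 329, 282, 576 and 315. Of 52 genes whose -log10 q fell to 0.5 or less, 4 were higher and 6 lower (11.5%). Longer coverage came with 189 higher genes of 1434 (13.2%), but shorter coverage with a similar share, 40 of 373 (10.7%). Of 88 genes with both a doubled -log10 q and longer coverage, 26 were higher (29.5%) and none lower. Of 1087 tested genes whose start was the nearest to a strong gained region within 50 kb, 80 were higher (7.36%) and 8 lower, and of 492 nearest to a strong lost region 18 were higher (3.66%) and 7 lower (1.42%).

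**Figure D3:**
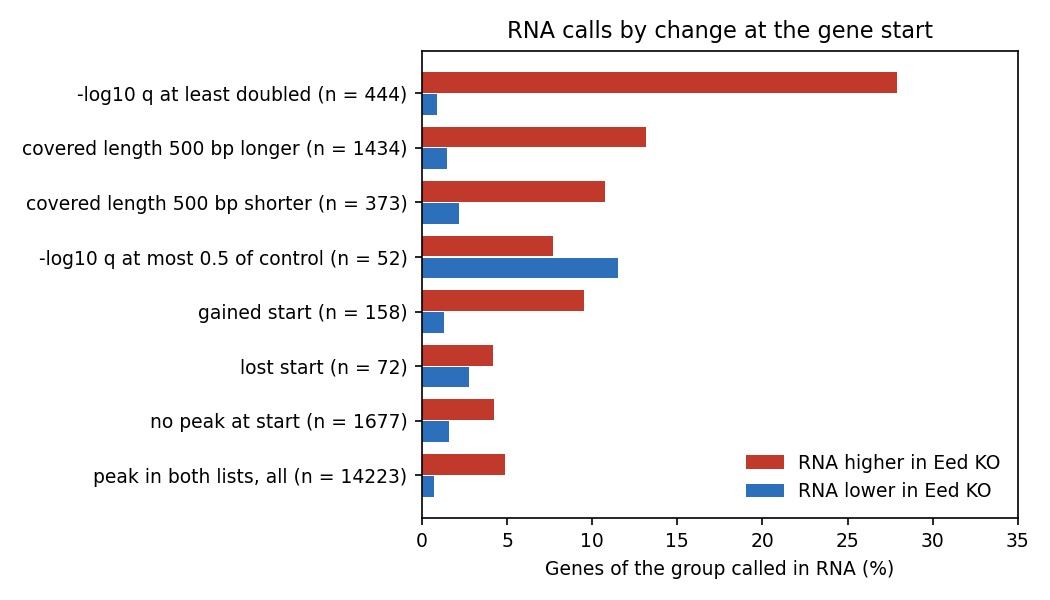
Share of RNA-tested genes (%) called higher or lower in Eed KO, by what changed at the gene start between the 2 lists, with the number of genes in each group. The longest bar is that of higher RNA at starts with a doubled -log10 q, 27.9% of 444 genes, against 4.86% of all 14223 genes with a peak in both lists. These groups were not matched for control peak strength.

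**Figure D4:**
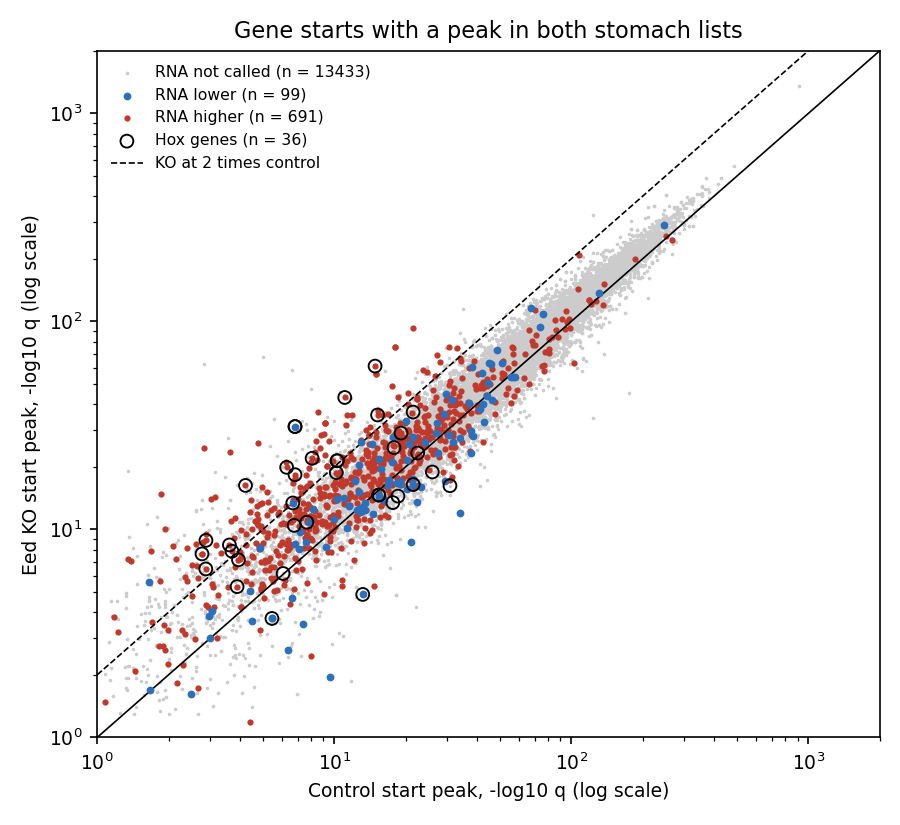
The -log10 q of the peak at each RNA-tested gene start in the control list (horizontal) and the Eed KO list (vertical), both on log scales, by RNA call, with the 36 Hox starts circled, the solid line at equality and the dashed line at 2 times control. Genes higher in RNA lie above the line of equality more often than uncalled genes, with a doubled -log10 q at 17.9% against 2.35%. Where the control -log10 q was under 20, these shares were 24.9% and 10.6%.

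The Hox genes, transcription factors in 4 clusters whose higher-numbered paralogue groups act toward the tail, held many of these starts. Of 39 Hox genes, 36 had a start that was open in both lists, Hoxc12 a gained start, and Hoxa6 and Hoxb3 no region in the start window. In RNA 19 were higher and 6 lower, beside 4.84% and 0.808% of all genes tested. The -log10 q at least doubled at 17 of the 36 starts (15 of 33 distinct peak pairs). The median ratio was 1.82 and the median fold enrichment ratio 0.98. Beside this stand 5.46% doubled among all starts and 15.9% among those with a control -log10 q under 20. The values are given by paralogue group, a split made after they were seen. All 16 genes of groups 9 to 13 were higher in RNA, the 15 with both peaks all had a higher -log10 q in Eed KO (median 6.83 to 18.3, ratio 2.33, range 1.36 to 4.57), and 10 doubled. In groups 1 to 8, 7 of 21 doubled, the median ratio was 1.04, and 3 genes were higher and 6 lower. Of the 16 posterior genes, 13 had no count in either control library, and 12 of these 13 had an open start in the control list. Genes without a control count could be called only higher, and entered the test only through Eed KO or intestine libraries. The count of 16 higher genes is therefore partly set in advance.

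Hoxa10, a gene of the posterior trunk whose start is printed above, was counted 0 times in both control libraries and had 42.2 and 37.1 CPM in Eed KO, at least 973-fold higher (adjusted p = 0.000356). Its start peak went from 5.12 to 4.39 in fold enrichment and from 19.1 to 29.0 in -log10 q. Hoxa11, its neighbour, rose from no count to 10.0 and 13.2 CPM (at least 286-fold, adjusted p = 0.000260), with 3.61 to 8.42 in -log10 q and a fold enrichment of 2.90 to 2.74. In both genes the enrichment fell slightly while the call became more significant. Hoxd10 rose in enrichment too (4.48 to 6.17, -log10 q 11.1 to 43.1), with RNA from no count to 1.14 and 1.87 CPM (at least 37.1-fold, adjusted p = 0.00995). Hoxc13 (14.9 to 61.0, at least 56.8-fold) and Hoxb13 (15.2 to 35.5, at least 404-fold), the last genes of their clusters, had the highest -log10 q in Eed KO among posterior genes with a peak of their own, beside Hoxd10. Hoxb9, already transcribed in control, had 4.46 and 3.28 against 23.2 and 27.3 CPM (log2 fold change 2.68, SE 0.20, adjusted p = 0.000594) and a -log10 q of 6.83 to 18.3. Hoxd10 lost the call without control replicate 2 (adjusted p = 0.0540).

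Of the anterior Hox genes, 6 fell, and Hoxc6, Hoxc8 and Hoxd8 rose. Hoxa5, a gene of the trunk active in gut mesenchyme, had 80.9 and 66.2 against 33.9 and 26.3 CPM (log2 fold change -1.32, SE 0.14, adjusted p = 0.00236), and its start peak weakened (13.2 to 4.87 in -log10 q, 3.01 to 2.25 in fold enrichment) while coverage within 5 kb grew from 2877 to 5282 bp. Hoxa2, Hoxa4, Hoxb1, Hoxb7 and Hoxc5 were also lower, with log2 fold changes of -1.46, -1.66, -2.12, -1.18 and -1.32. Hoxc5 shares its start peak with Hoxc10, and that peak strengthened (6.83 to 31.2) where Hoxc5 RNA fell and Hoxc10 RNA rose from no count to 3.37 and 5.34 CPM. Peaks and calls could not be assigned to 1 of the 2 genes there, nor at Hoxb7 and Hoxb8 or Hoxd3 and Hoxd4. Over whole clusters with 5 kb on either side, the covered length grew from 35274 to 40898 bp in Hoxa (chr6:52150590-52265880), 40518 to 44052 bp in Hoxb (chr11:96189316-96373256), 28766 to 35247 bp in Hoxc (chr15:102916103-103041852) and 24685 to 30872 bp in Hoxd (chr2:74663310-74770142). Hoxc held 6 gained and 4 lost regions, Hoxd 1 and 3, and Hoxa and Hoxb 1 and 1 each. In the intestine lists, the median -log10 q ratio was 1.27 for groups 9 to 13 (3 of 15 doubled) and 0.93 for groups 1 to 8 (1 of 21). Hoxb1 lost the call whichever of the 4 libraries was left out (adjusted p from 0.0524 to 0.108). Hoxb7 lost the call without control replicate 1, control replicate 2 or Eed KO replicate 2 (adjusted p from 0.0301 to 0.0545). Without Eed KO replicate 2, Hoxb7 kept an adjusted p under 0.05 with a log2 fold change of -0.95, short of the fold threshold.

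**Figure D5:**
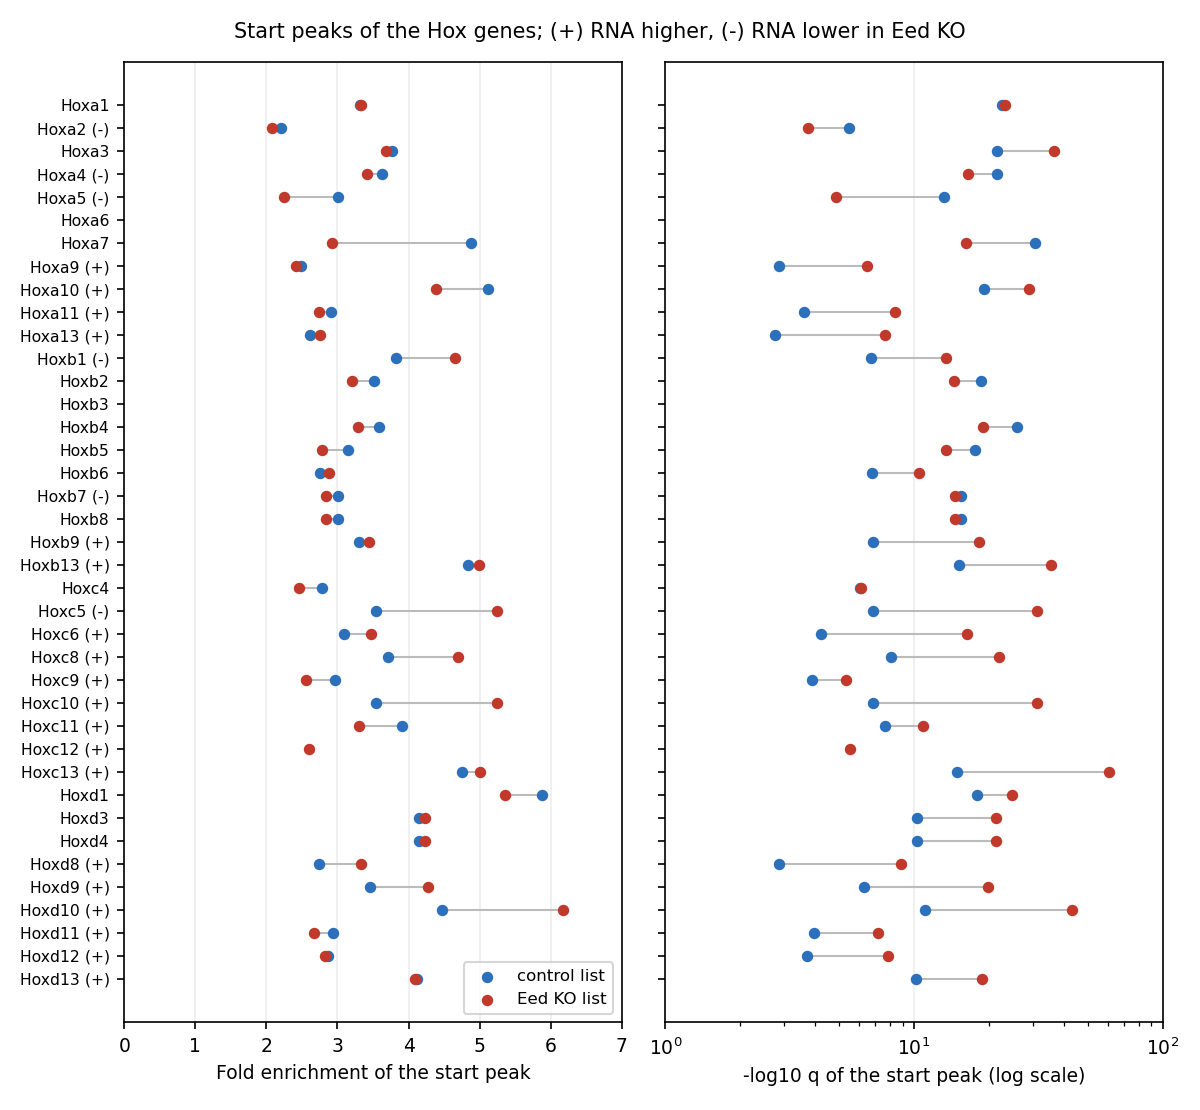
Fold enrichment (left) and -log10 q (right, log scale) of the start peak of each Hox gene in the control and Eed KO stomach lists, ordered by cluster and paralogue group, with genes higher (+) or lower (-) in RNA marked. In groups 9 to 13 the Eed KO -log10 q lies above the control value at all 15 starts with both peaks, while the fold enrichments move either way.

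In these lists 7 of 12 starts of intestinal mesenchyme factors doubled in -log10 q, and 0 of 11 starts of stomach mesenchyme factors. The 0 of 11 is near the 5.46% of all starts. Among all starts with a control -log10 q under 20, 15.9% doubled, and the groups of factors were not matched for control peak strength. Most of the 7 were starts of Hox genes. Of the 12 intestinal mesenchyme factors, 6 of them Hox genes, all had starts that were open in both lists, 7 doubled their -log10 q (median ratio 2.29), 8 had longer coverage and 8 were higher in RNA. Of all starts 5.46% doubled and 11.8% had longer coverage, and 4.84% of all genes tested were higher. Outside the Hox genes only Nkx2-3 and Foxl1 doubled, and only Nkx2-3 and Hand1 were higher in RNA. The rest of these counts are Hox genes already counted above. Nkx2-3, a homeobox gene of intestinal and splenic mesenchyme, went from 4.75 to 26.0 in -log10 q and 2.74 to 3.61 in fold enrichment, and its RNA was 2.08 and 0.202 against 19.3 and 25.3 CPM (log2 fold change 4.32, SE 0.63, adjusted p = 0.00806). Hand1, a basic helix-loop-helix factor, doubled its coverage instead (3177 to 6449 bp, -log10 q 5.31 to 6.40), with 1.96 and 0.278 against 5.66 and 10.7 CPM (log2 fold change 2.89, SE 0.62, adjusted p = 0.0316). Foxl1, a marker of the mesenchyme below the epithelium, gained the most in significance among these 12 (2.83 to 62.3, fold enrichment 2.04 to 5.48), and its RNA was not called (11.4 and 19.4 against 19.8 and 19.0 CPM, adjusted p = 0.558). Foxf1, Foxf2 and Hand2 had lower -log10 q values in Eed KO, and their RNA was not called. Hand1 lost the call without control replicate 2 or Eed KO replicate 2 (adjusted p from 0.0681 to 0.140).

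Of the 12 stomach mesenchyme factors, 11 had peaks in both lists at the start, and none doubled. Of all starts 5.46% doubled, so none of 11 is near that share, and 15.9% doubled where the control -log10 q was under 20. Longer coverage was found at 11.8% of all starts, and 4.84% of all genes tested were higher. Barx1, the homeobox gene that marks stomach mesenchyme, fell from 30.6 to 14.7 in -log10 q and from 3.76 to 2.79 in fold enrichment, with RNA at 634 and 552 against 394 and 311 CPM (log2 fold change -0.78, SE 0.27, adjusted p = 0.141), a difference that missed the threshold. Coverage was longer at 8 of the 11 (median 1999 to 2970 bp), Barx1 among them (2286 to 2970 bp). Tbx5 and Lhx9 were the 2 with higher RNA, Tbx5 at 0.176 and 0.126 against 8.98 and 11.6 CPM (log2 fold change 6.04, SE 0.44, adjusted p = 0.00101) with coverage from 1851 to 3544 bp. Pitx1, Six2 and Isl1 were not called. Lhx9 lost the call without control replicate 1, control replicate 2 or Eed KO replicate 2 (adjusted p from 0.0505 to 0.0981).

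Families of developmental transcription factors had open starts in control cells as a rule, and many rose in RNA. Their counts are read beside 4.84% higher genes among all tested and 5.46% of all starts with a doubled -log10 q. The latter was 15.9% where the control -log10 q was under 20. A gene was tested only where enough libraries held counts for it. Genes silent in control could thus enter through Eed KO, while genes silent throughout dropped out. The shares of tested genes that rose are therefore partly set by this filter. Of the 9 Pax genes, regulators of organ primordia, 7 had both peaks, 4 of these doubled in -log10 q and 5 of 6 tested were higher. Pax6, an eye and pancreas regulator, grew from 804 to 3211 bp of coverage and from 2.67 to 5.82 in -log10 q, at 0 and 0.0252 against 8.86 and 10.0 CPM (adjusted p = 0.00281). Of the 17 T-box genes, 14 had both peaks, 4 doubled and 9 of 11 tested were higher. Tbx4, of hindlimb and lung mesenchyme, went from 1.23 to 3.20 in -log10 q, at 0.0879 and 0.227 against 3.07 and 4.27 CPM (log2 fold change 4.45, SE 0.47, adjusted p = 0.00240). Zic genes, of neural tube and dorsal mesoderm, doubled at 1 of 4 starts and 4 of 5 were higher, and Zic1, with no count in control, reached 39.7 and 45.7 CPM (at least 1051-fold, adjusted p = 0.00120) while its -log10 q went from 7.73 to 13.2. The LIM homeobox genes doubled at 2 of 11 starts and 7 of 9 tested were higher.

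The remaining families had 0 to 3 doubled starts each, and most of their tested genes rose in RNA except among the Iroquois genes. These counts too are read beside 4.84% higher genes and 5.46% doubled starts, and the same count filter set which genes were tested. Nkx genes doubled at 3 of 13 starts and 5 of 7 tested were higher, Dlx and Msx genes at 1 of 9 with 5 of 8 higher, and Iroquois genes at 0 of 6 with 2 of 4 higher. Gata genes doubled at 1 of 5 starts and 4 of 5 tested were higher. Gata6, of endoderm and heart, was the doubled one (15.0 to 55.9), at 37.2 and 32.1 against 93.9 and 111 CPM (log2 fold change 1.54, SE 0.25, adjusted p = 0.0116). Gata4, its close relative, had a weaker start peak in Eed KO (4.87 to 3.28, fold enrichment 3.10 to 2.48) and higher RNA, at 14.7 and 15.3 against 90.6 and 94.1 CPM (log2 fold change 2.59, SE 0.30, adjusted p = 0.00303). The direction of the start peak thus did not give that of the RNA gene by gene. Gata6 lost the call without control replicate 1, control replicate 2 or Eed KO replicate 2 (adjusted p from 0.0629 to 0.104).

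Among the secreted ligands, 3 Wnt genes and Fgf8 were higher in RNA and Bmp6 was lower. Their counts are read beside 4.84% higher and 0.808% lower genes among all tested. The -log10 q doubled at 5.46% of all starts and at 15.9% of those with a control -log10 q under 20. Of the Wnt ligands, 2 of 16 starts doubled and 3 of 13 tested genes were higher. Wnt11, a ligand of the noncanonical pathway, went from 9.01 to 28.7 in -log10 q, at 14.4 and 11.4 against 37.2 and 32.8 CPM (log2 fold change 1.41, SE 0.21, adjusted p = 0.00852). Wnt2, a ligand of gut and lung mesenchyme, went from 14.8 to 16.2 in -log10 q, and its RNA missed the threshold (1.26 and 3.00 against 6.75 and 7.82 CPM, adjusted p = 0.0645). Of the BMP and GDF ligands, 1 of 14 starts doubled, no gene of 11 tested was higher and Bmp6 was lower (log2 fold change -1.13, SE 0.18, adjusted p = 0.0124), with a -log10 q of 73.5 to 94.3. Of the FGF ligands, 2 of 20 starts doubled and Fgf8 alone of 14 tested was higher (log2 fold change 3.88, SE 0.72, adjusted p = 0.0199), although its start peak weakened (9.05 to 4.90). The other PRC2 subunits held no called gene, as Eed was the sole called gene of 11 and no start doubled. Wnt11 lost the call without control replicate 2 (adjusted p = 0.0729). Bmp6 lost the call whichever of the 4 libraries was left out (adjusted p from 0.0625 to 0.0806). Fgf8 lost the call without control replicate 1, control replicate 2 or Eed KO replicate 2 (adjusted p from 0.113 to 0.142).

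Among 7 cell cycle inhibitors, 6 had peaks in both lists, 2 doubled and 4 were higher in RNA. Of all starts 5.46% doubled, and 4.84% of all genes tested were higher. Cdkn2b, which encodes the kinase inhibitor INK4B, went from 6.33 to 8.91 in fold enrichment and from 21.4 to 92.4 in -log10 q, at 0.0293 and 0.202 against 3.23 and 4.29 CPM (log2 fold change 4.89, SE 0.69, adjusted p = 0.00719). Cdkn2a, its neighbour on chromosome 4 that encodes INK4A and ARF, went from 17.5 to 48.7 in -log10 q, at 0.0586 and 0 against 37.8 and 40.1 CPM (adjusted p = 0.000164). Both were near 0 in control and rose in both Eed KO replicates. Cdkn2c (42.4 to 50.9) was higher as well (log2 fold change 1.95, SE 0.29, adjusted p = 0.00835), and Cdkn1a, higher too, had no peak at the start used here. Cdkn2c lost the call without control replicate 1 (adjusted p = 0.0645). Cdkn1a lost the call without control replicate 1, control replicate 2 or Eed KO replicate 2 (adjusted p from 0.0881 to 0.133).

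The 10 largest rises and the 10 largest falls of fold enrichment at a start are read beside 4.84% higher and 0.808% lower genes among all tested. The 10 largest rises, led by 9030624G23Rik (4.39 to 9.26), Gm20472 (3.88 to 8.18) and Gm9312 (4.60 to 8.99), held no called gene. Irgm2 and Igtp, interferon-induced GTPases that share a start peak, were among them (4.83 to 8.20), and so was Zfp526 (6.06 to 10.9), whose single control peak also covered Dedd2 and was split in Eed KO (6.06 to 3.08 at Dedd2). Of the 10 largest falls, 2 were higher in RNA and 1 lower. Eif3j2 fell from 10.3 to 5.32 and its RNA from 6.13 and 7.65 to 0.0836 and 0.138 CPM (log2 fold change -5.94, SE 0.32, adjusted p = 0.000164), though it has a near-identical paralogue, Eif3j1, and reads may be split between them. Onecut2, a liver and pancreas factor, fell from 8.87 to 4.61 while coverage grew from 1136 to 4188 bp, and its RNA was higher, at 0.147 and 0.278 against 3.34 and 3.69 CPM (log2 fold change 3.98, SE 0.45, adjusted p = 0.00279). H2-Ab1, an MHC class II gene, likewise fell from 7.43 to 4.35 with RNA higher, at 0.176 and 0.278 against 1.78 and 1.76 CPM (log2 fold change 2.90, SE 0.44, adjusted p = 0.00988). In both of these genes the fold enrichment at the start fell where the RNA rose. H2-Ab1 lost the call without control replicate 1 or control replicate 2 (adjusted p from 0.0597 to 0.0778).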

How the data were processed

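Per the labels and the methods of the study, ATAC reads were trimmed with Trimmomatic 0.32, aligned to mm10 with BWA 0.7.8, pooled over the 2 replicates of a group and passed to MACS2 2.1.2 in broad mode with a q threshold of 0.01, that is a -log10 q of 2. The deposited lists also hold peaks below that threshold and peaks on chromosome X, and all were used. The authors gave each peak a fold enrichment, a ratio to background, and a -log10 q. RNA was aligned with STAR 2.5.1b and deposited as raw counts per gene from featureCounts, whose version is given as 1.5.0 and as 2.5.0.

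Peaks were merged with bedtools 2.31.1 at an overlap of at least 1 bp. Gene starts came from the exon coordinates of the count files, for 41670 of 43379 genes, those on a single chromosome and strand. A start has a window of 1000 bp on either side, and nearest starts were sought within 50 kb. RNA was fitted with edgeR 4.0.16 (quasi-likelihood, TMM scaling, Benjamini-Hochberg adjustment) on the 8 embryonic libraries, and on simulated counts of 15466 genes the fit recovered 99.0% of 200 genes changed 4-fold. Nothing in the labels says whether replicates were separate litters, so p-values measure the spread between these samples. No column of per-sample values was left out.

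Genes were named by rule: those nearest the 10 longest summed strong gained and lost regions, the 5 regions of each class with the highest fold enrichment, up to 10 each way with a gained or lost start and RNA in the same direction, the 10 largest and smallest fold enrichment ratios at shared starts, members of 25 gene lists, and Barx1, Hoxa10, Hoxa11, Hoxb9, Cdkn2b, Wnt2 and Wnt11. Some items that the rule names are not reported here. The members, lists and rules were chosen with earlier results of these data known. Alternatives covered peak thresholds, overlap, start windows, merging, autosomes, count filter, scaling, replicate block, DESeq2 and each library left out. The start stretches matched RefSeq for 16257 starts only, so shares over start classes were taken from region centres.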

Additional observations from a re-analysis of the deposited data

Results flagged for a closer look

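The change of RNA with Eed loss was set against that in the intestine of the same genotypes by an interaction term in the edgeR fit. The interaction passed at an adjusted p under 0.05 for 17 of 16218 genes, 7 of them Hox genes named here. A fitted difference for a gene with 0 to 3 control counts in the stomach depends on the fit's prior count and is no bound.

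Hoxa10 differed by 12.66 on the log2 scale (adjusted p = 0.00989), with 0 and 0 CPM in control and 42.2 and 37.1 in Eed KO stomach, and 26.9 and 23.7 against 58.7 and 30.5 CPM in the intestine. Hoxa11 differed by 11.38 on the log2 scale (adjusted p = 0.00814), with 0 and 0 CPM in control and 10.0 and 13.2 in Eed KO stomach, and 13.0 and 12.7 against 18.8 and 13.2 CPM in the intestine. Hoxa13 differed by 11.57 on the log2 scale (adjusted p = 0.00989), with 0 and 0 CPM in control and 20.8 and 29.7 in Eed KO stomach, and 5.38 and 8.07 against 16.7 and 15.1 CPM in the intestine. Hoxc6 differed by 2.14 on the log2 scale (adjusted p = 0.0164), with 2.58 and 3.11 CPM in control and 10.3 and 9.74 in Eed KO stomach, and 33.1 and 28.9 against 24.5 and 24.9 CPM in the intestine. Hoxc8 differed by 8.62 on the log2 scale (adjusted p = 0.000524), with 0 and 0.0505 CPM in control and 15.3 and 14.5 in Eed KO stomach, and 61.4 and 58.1 against 77.2 and 70.2 CPM in the intestine. Hoxd13 differed by 8.22 on the log2 scale (adjusted p = 0.0140), with 0.0293 and 0.0505 CPM in control and 26.8 and 32.6 in Eed KO stomach, and 5.77 and 13.0 against 20.8 and 21.4 CPM in the intestine. Hoxd8 differed by 1.65 on the log2 scale (adjusted p = 0.0339), with 2.46 and 2.55 CPM in control and 17.1 and 14.2 in Eed KO stomach, and 12.3 and 12.8 against 25.4 and 24.2 CPM in the intestine. In each of the 7 the intestine was already transcribing the gene in control cells. These were marked for a difference between the tissues.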

How the results depend on the processing

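Limits come from the single list per genotype, its unknown depth and the 2 RNA samples per genotype. With peaks of a -log10 q of at least 2, lost regions numbered 14458, the share of gained regions at starts was 3.92%, and 26 gained-start genes were higher and 4 lost-start genes lower in RNA. At 5 or more there were 13345 gained and 8309 lost regions, 6.41% and 2.72% at starts, with 76 and 7 such genes, and 71 genes with a doubled -log10 q were higher. With the top 50000 peaks of each list these were 8833 and 8685 regions, 7.57% and 3.12%, 76 and 5 genes, and 64. At 50% reciprocal overlap they were 46219 and 45166 regions, with 4.88% and 4.16% at starts. Windows of 500 bp gave start shares of 2.61% and 1.41%, and windows of 5000 bp 12.9% and 10.2%, with 6 gained-start genes higher. Merging peaks within 250 bp and using autosomes alone left all counts within 1.5 times. In every one of these settings the start share was larger in gained than in lost regions.

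Without the count filter 198 genes were lower. DESeq2 called 860 higher and 160 lower. Spike-in scaling called 15419 higher and 19 lower, with 134 gained-start genes higher, 0 lost-start genes lower, and 417 genes (93.9%) with a doubled -log10 q higher beside 95.1% of all genes tested, so that such starts no longer stood above the share over all genes. Under it the log2 fold change was 0.14 for Eed, 0.90 for Hoxa2, 0.71 for Hoxa4, 1.02 for Hoxa5, 0.10 for Hoxb1, 1.11 for Hoxb7, 1.01 for Hoxc5, 0.0029 for Tdo2, 0.14 for Gm11541, 0.78 for Aox4, 0.68 for Cldn2 and 1.29 for Bmp6. Leaving out each library gave 282 to 576 higher and 50 to 74 lower genes, 4 to 13 gained-start genes higher, 1 to 2 lost-start genes lower, and 64 to 97 genes with a doubled -log10 q higher, 13.3% to 20.6% of such genes beside 1.68% to 3.44% of all genes tested. A group left with 1 library was assumed to vary like the others. Of the 61 called genes named, 9 lost the call without Eed KO replicate 1, 26 without Eed KO replicate 2 and 25 without either control replicate, none under the block or without the count filter, and 1 with DESeq2. Same-numbered control and Eed KO stomach replicates showed no pairing, with a correlation of 0.047 between their deviations. Pairing of stomach with intestine libraries was not checked. A replicate block gave 1024 higher and 182 lower genes, 19 and 3 at gained and lost starts, and 147 (33.1%) at starts with a doubled -log10 q. The results at starts with a doubled -log10 q were added after the data were seen.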
